A study of Mus musculus with 4 samples.

Results

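The genes described here are 8 nuclear and metabolic regulators of haematopoietic stem cells, Hlf, Mecom, Meis1, Gata2, Mllt3, Txnip, Runx1 and Lmo2, leaving aside the Hox genes. They were chosen by name, and all 8 were found among the 16673 genes of the deposited table. RNA was sequenced from lineage-negative (Lin–) bone marrow cells, which are what remains once cells with surface markers of mature blood lineages are taken out. The cKO group was 2 mice of genotype Tie2+/cre; Tet3F/F, in which Cre recombinase driven by Tie2 (Tek) targets the floxed Tet3 alleles in endothelial cells and in the blood cells that descend from them. The control group was 2 mice of genotype Tet3F/F, which carry the same floxed alleles with no Cre, so presence of Cre and targeting of Tet3 cannot be told apart. All 4 mice were 2 months old, and each gave 1 library.

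These 8 genes belong to the circuit that sets up and keeps stem cells in the blood system. RUNX1 and GATA2 are needed for stem cells to arise from endothelium in the embryo, and LMO2 bridges GATA factors, TAL1 and LDB1 on DNA. MEIS1 binds DNA with PBX and HOX proteins, while HLF and MECOM are transcription factors used as marks of the most primitive cells. MLLT3 (AF9) reads acylated histones and brings in elongation factors and the methyltransferase DOT1L. TXNIP is an alpha-arrestin that binds thioredoxin and restrains glucose uptake, and it favours stem cell quiescence. TET3 oxidises 5-methylcytosine, which in mammals lies mostly in CpG dinucleotides, and the comparison asks whether targeting Tet3 changes transcript levels in these cells.

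Because TET3 acts at CpG, the bases before the transcription starts are shown for Runx1 and Gata2 with each CpG in capitals. For Txnip they are shown further down, with other letters in capitals. RefSeq (GRCm38.p6, another build than the mm39 of the reads) had windows for 7 of the 8 genes, 11 windows in all, and had none for Lmo2. Runx1 and Gata2 are shown because each is transcribed from a pair of separate starts, and Txnip because its promoter carries known glucose-response sites. Mecom and Mllt3 also had 2 windows each and are not shown. Each window covers the 250 bases upstream of a start and is written 5′ to 3′ along the gene.
Runx1 distal start (chr16:92826075-92826324, minus strand): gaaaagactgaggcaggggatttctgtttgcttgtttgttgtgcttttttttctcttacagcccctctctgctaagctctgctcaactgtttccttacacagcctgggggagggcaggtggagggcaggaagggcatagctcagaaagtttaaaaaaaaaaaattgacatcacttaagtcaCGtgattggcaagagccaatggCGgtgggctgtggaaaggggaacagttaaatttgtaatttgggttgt
Runx1 proximal start (chr16:92697330-92697579, minus strand): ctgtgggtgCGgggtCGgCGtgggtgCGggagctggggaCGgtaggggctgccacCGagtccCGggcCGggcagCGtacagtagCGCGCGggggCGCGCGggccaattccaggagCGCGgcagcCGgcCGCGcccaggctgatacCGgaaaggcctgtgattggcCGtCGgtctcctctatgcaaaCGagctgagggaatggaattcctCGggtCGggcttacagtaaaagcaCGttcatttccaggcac
Gata2 upstream start (chr6:88193641-88193890, plus strand): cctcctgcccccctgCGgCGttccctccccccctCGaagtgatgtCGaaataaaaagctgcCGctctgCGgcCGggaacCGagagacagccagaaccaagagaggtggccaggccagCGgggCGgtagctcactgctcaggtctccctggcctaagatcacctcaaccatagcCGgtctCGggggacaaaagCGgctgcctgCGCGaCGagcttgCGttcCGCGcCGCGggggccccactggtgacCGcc
Gata2 downstream start (chr6:88198414-88198663, plus strand): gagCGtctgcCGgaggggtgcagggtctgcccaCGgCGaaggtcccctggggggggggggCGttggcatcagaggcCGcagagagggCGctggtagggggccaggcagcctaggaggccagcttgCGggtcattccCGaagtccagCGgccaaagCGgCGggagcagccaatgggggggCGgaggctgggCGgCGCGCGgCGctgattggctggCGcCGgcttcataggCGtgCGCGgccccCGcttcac

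The distal Runx1 window held 2 CpGs and the proximal one 27, against a median of 6 over all 32851 windows (quartiles 2 and 16). The Gata2 windows held 22 and 24. Among the other members, Hlf had 26 CpGs, Txnip 22, Meis1 13, Mecom 14 and 8, and Mllt3 23 and 4. Each of the 7 genes thus had at least 1 window above the median of all windows, and only the distal Runx1 window and the second Mllt3 window lay below it. Methylation at these bases is not measured by RNA counts, and reads were counted per gene, so transcripts from the separate starts are summed below.

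In the Txnip window the carbohydrate response half-site CACGAG is in capitals, as searched on both strands (CACGAG or CTCGTG).
Txnip (chr3:96557707-96557956, plus strand): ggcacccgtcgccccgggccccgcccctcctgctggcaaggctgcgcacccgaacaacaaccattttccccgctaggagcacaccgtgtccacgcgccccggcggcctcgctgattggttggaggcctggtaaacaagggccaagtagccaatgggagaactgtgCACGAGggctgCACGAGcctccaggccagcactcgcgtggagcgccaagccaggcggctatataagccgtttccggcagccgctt
It occurred 2 times in the Txnip window, and 5.37% of all windows held it at least 1 time. AGATAA, 1 form of the letters that GATA factors bind, was on neither strand in any of the 11 windows of the members. It was on either strand in 9.99% of all windows. The letters TGTGGT, which RUNX factors bind, were on 1 strand of the Meis1 window and of no other member's window, and 14.0% of all windows held them. Only these exact letters were searched, so the windows can hold other forms of GATA or RUNX sites. Such matches are descriptions of letters in these windows.

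Gene reads per library were 28845037 and 30020188 in cKO and 39199593 and 46673855 in control. Tet3 had 6400 and 5084 normalized counts in cKO and 5056 and 6593 in control (log2 fold change -0.02, SE 0.22), so its count over the whole gene was not reduced in cKO libraries. The labels do not name the floxed exons, so the value checks no label. Xist had 87442 and 48951 normalized counts in cKO, against 5.54 and 9.57 in control, and Ddx3y had 0 in both cKO libraries, against 3158 and 3672 in control. Genotype and sex therefore cannot be told apart in any result here. Control replicate 2 stood apart, with 8.16% of its gene reads in 13 mitochondrial protein genes, against 0.989% to 1.26% in the other libraries, so results are also given without it. The Lin– label was set against its markers: Kit, the receptor of blood progenitors, had 14050 and 12478 normalized counts in cKO and 10915 and 11537 in control, while the T cell gene Cd3e had 460 and 292 in cKO and 67.4 and 177 in control.

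None of the 8 regulators passed the test between cKO and control, and their differences were within the spread between mice of 1 group. A gene was called when its adjusted p was under 0.05 (limma on log2(normalized count + 1), Benjamini-Hochberg over 16598 genes, two-sided). That rule called 12 genes, 0.0723% of those tested, and 0 of the 8 regulators. None of the 8 had an unadjusted p under 0.05, against 6.1% of all genes, and their smallest was 0.30, for Meis1. edgeR and DESeq2 on recovered reads also called 0 of them and found 0 with an unadjusted p under 0.05. In 0 of the 8 did both cKO libraries lie beyond both control libraries, whereas this held for 38.7% of all genes tested. The log2 fold changes of the 8, cKO over control, ran from -0.26 to 0.27, with 3 above 0, 5 below 0 and a median of -0.08. Over all genes tested the median was 0.01 and the median absolute log2 fold change 0.28. The smallest p that an exact permutation of 2 against 2 can give is 0.33, so the calls rest on the model across genes.

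**Figure D1:**
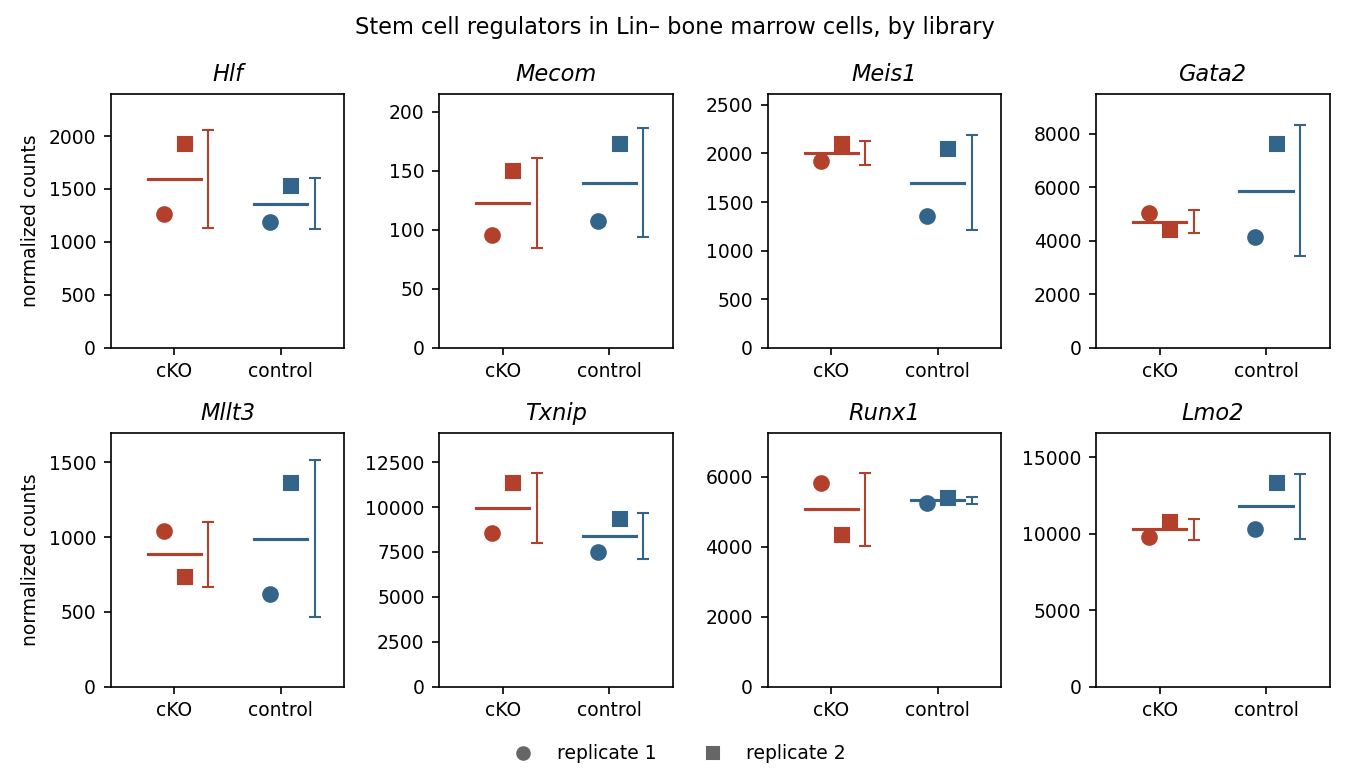
Normalized counts (y axis, from 0) of each of the 8 regulators in cKO (red, left) and control (blue, right) mice; circles are replicate 1, squares replicate 2, the horizontal line is the mean and the bar beside it ± 1 SD (n = 2 mice per group). In every panel the cKO and control values overlap, and in all 8 the control replicate 2 square lies above the control replicate 1 circle.

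Among the factors that mark primitive cells, Hlf, a PAR bZIP transcription factor, had 1268 and 1922 normalized counts in cKO and 1188 and 1531 in control. Replicate 2 was the higher one in both groups, and the ranges overlapped. Its log2 fold change was 0.21 (SE 0.26, 95% interval -0.40 to 0.83; limma adjusted p = 0.86), an interval that runs from 1.32-fold lower to 1.77-fold higher in cKO. Mecom, a zinc finger factor needed for stem cell self-renewal, had the lowest level, with 95.7 and 149 normalized counts in cKO and 107 and 172 in control. These came from only 82 and 130 reads in cKO and 116 and 216 in control. The control value of replicate 2 was the highest and the cKO value of replicate 1 the lowest. Its log2 fold change of -0.18 had the widest interval of the 8, -1.23 to 0.86 (SE 0.45; limma adjusted p = 0.93), which takes in a 2.34-fold lower and a 1.82-fold higher level.

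Meis1, the homeobox partner of PBX and HOX proteins, had 1918 and 2094 normalized counts in cKO and 1354 and 2047 in control. Control replicate 1 was lower than the other 3 libraries, which lay close together. The log2 fold change was 0.27 (SE 0.24, 95% interval -0.30 to 0.84; limma adjusted p = 0.80). It was 0.57 without control replicate 2 (SE 0.20) and -0.030 without control replicate 1 (SE 0.19), and neither passed (limma adjusted p = 0.48 and adjusted p = 0.94). Txnip, whose product inhibits thioredoxin, had 8546 and 11321 normalized counts in cKO and 7491 and 9309 in control. As with Hlf, replicate 2 was higher in both groups and cKO replicate 2 was the highest library. Its log2 fold change was 0.24 (SE 0.22, 95% interval -0.28 to 0.76; limma adjusted p = 0.80), and it stayed above 0, between 0.03 and 0.44, whichever library was dropped.

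The 3 members that share DNA-bound complexes, Gata2, Lmo2 and Runx1, each had a fold change below 0 that did not pass. Gata2 had 5022 and 4408 normalized counts in cKO and 4150 and 7605 in control. Both cKO libraries lay between the control libraries, which differed from each other 1.83-fold. The log2 fold change was -0.26 (SE 0.29, 95% interval -0.93 to 0.42; limma adjusted p = 0.84). Its sign turned with the control library kept: it was 0.18 without control replicate 2 (SE 0.19) and -0.69 without control replicate 1 (SE 0.19; limma adjusted p = 0.093), the smallest adjusted p of any member under any setting tried. Lmo2, the bridging subunit, had 9813 and 10766 normalized counts in cKO and 10296 and 13305 in control. Here 3 libraries lay within a narrow range and control replicate 2 above them. Its log2 fold change was -0.19 (SE 0.21, 95% interval -0.67 to 0.30; limma adjusted p = 0.84), and -0.0025 without control replicate 2 (SE 0.20).

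Runx1, the DNA-binding subunit of core binding factor, had 5818 and 4335 normalized counts in cKO and 5263 and 5404 in control. It had the narrowest gap between control libraries of the 8 genes, 1.03-fold, and both control values lay between the cKO values. Its log2 fold change was -0.09 (SE 0.21, 95% interval -0.57 to 0.40; limma adjusted p = 0.93), an interval from 1.48-fold lower to 1.32-fold higher. Mllt3, the histone reader, had 1039 and 731 normalized counts in cKO and 619 and 1360 in control. It had the widest gap between control libraries, 2.20-fold, and both cKO values lay inside it. The log2 fold change was -0.07 (SE 0.38, 95% interval -0.97 to 0.82; limma adjusted p = 0.97). It was 0.49 without control replicate 2 (SE 0.27) and -0.64 without control replicate 1 (SE 0.27), and neither passed (limma adjusted p = 0.72 and adjusted p = 0.21).

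**Figure D2:**
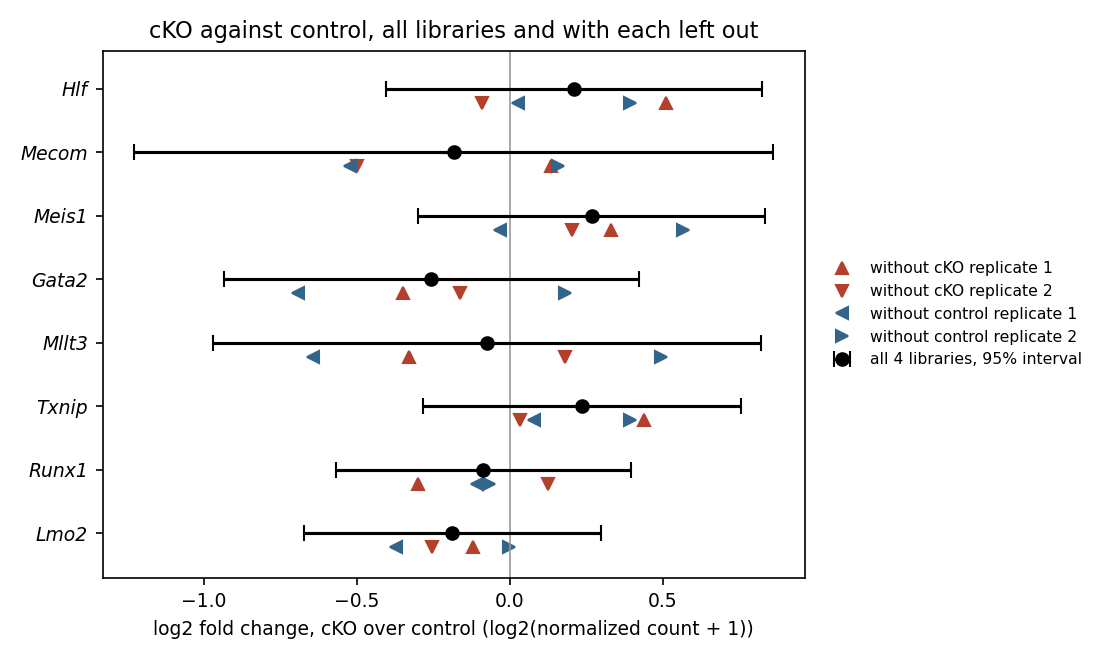
Log2 fold change of cKO over control (x axis) for each of the 8 regulators: black points with bars are all 4 libraries with the 95% interval, and triangles are the value with 1 library left out (red, a cKO library; blue, a control library). All 8 intervals include 0, and for Mecom, Meis1, Gata2 and Mllt3 the values without control replicate 1 and without control replicate 2 lie on opposite sides of 0.

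For all 8 genes the larger gap between replicates of 1 group exceeded the difference between the groups on the log2 scale. With 2 mice per group this follows from the overlap of the groups, so it adds no further result. In control, replicate 2 exceeded replicate 1 for 8 of 8 genes, from 1.03-fold for Runx1 to 2.20-fold for Mllt3. In cKO, replicate 2 was the higher one for 5 of 8, and Gata2, Mllt3 and Runx1 went the other way. The shares of all genes that were higher in replicate 2 were not counted, so neither count is read as particular to these genes. Hlf, Meis1 and Txnip were highest in cKO replicate 2, as were 2547 of the 16598 genes tested. Mecom, Gata2, Mllt3 and Lmo2 (4 of 8, against 34.0% of all genes) were highest in control replicate 2. Runx1 was highest in cKO replicate 1, as were 4584 of the 16598. The lowest library was control replicate 1 for 5 of the 8 genes, as it was for 3693 of the 16598 genes tested. The 8 genes together took 0.0995% and 0.104% of gene reads in cKO and 0.0842% and 0.109% in control. Without control replicate 2, 5 of the 8 (Hlf, Meis1, Gata2, Mllt3 and Txnip) had both cKO values above the remaining control value and 0 had both below it, against 34.6% of all genes above and 36.9% below. Without control replicate 1, 0 lay above and 4 (Mecom, Gata2, Mllt3 and Lmo2) below, against 40.9% and 39.6%. Both counts of 0 were fixed beforehand, since the groups overlapped and control replicate 2 exceeded control replicate 1 in all 8 genes. The turn from above to below is thus not read as particular to these genes. Leaving out a control library turned the members' median log2 fold change from 0.29 (without replicate 2) to -0.24 (without replicate 1), with 0 of 8 called in both cases.

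Levels can be compared between genes only per length, here as normalized counts per kilobase of annotated exon (GENCODE M21), averaged over the 4 libraries. Lmo2 had the highest level (5099 per kilobase), then Txnip (2935), Gata2 (981), Runx1 (433), Hlf (221), Meis1 (176), Mllt3 (78.1) and Mecom (10.6). The order was the same in each of the 4 libraries. Over the 4 libraries the ranges of neighbours in this order were separate except for Hlf (178 to 288) and Meis1 (129 to 199). In a mixture such as Lin– cells, fewer cells that express a gene and less RNA per cell cannot be told apart, so the low level of Mecom is a level over all Lin– cells.

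Marker genes of differentiating cells also moved between libraries. Summed normalized counts of 8 erythroid genes were 46634 and 26474 in cKO and 33480 and 94942 in control, and 8 of 8 were highest in control replicate 2, where 34.0% of all genes tested were highest. Those of 5 megakaryocyte genes were 6136 and 6022 in cKO and 4963 and 10567 in control, with 4 of 5 highest in that library. Gata2, Lmo2, Mecom and Mllt3 were highest in the same library, and GATA2 and LMO2 are also used by erythroid and megakaryocyte precursors. The 9 neutrophil and monocyte genes summed to 380561 and 471568 in cKO and 601406 and 191738 in control. Control replicate 2 was the lowest library for that sum, of which Mpo is the largest part, and for 5 of the 9 genes. All 9 were highest in control replicate 1, as were 3827 of the 16598 genes tested. Mast cells and basophils express Gata2 too, and their 6 genes summed to 14989 and 8969 in cKO and 14020 and 6122 in control, with 5 of 6 lowest in control replicate 2. Endothelial cells express Mecom and Gata2, and Cre is active in them. Their 6 genes summed to 9234 and 7909 in cKO and 7152 and 6831 in control. Pecam1 was the largest part, and the other 5 genes summed to 4041 and 3681 in cKO and 2930 and 3909 in control. Among these, Cdh5 had 224 and 66.6 in cKO and 95.1 and 47.9 in control. Log2 fold changes were 1.59 for Kdr, 0.85 for Cdh5, 0.15 for Eng, -0.0038 for Robo4 and -0.18 for Emcn. The 6 endothelial genes had a median of 0.28, with 4 above 0 and 0 called. In 2 of the 6 both cKO values lay above both control values, against 19.2% of all genes tested. The list of 12 genes of T cells, NK cells and innate lymphocytes had a median log2 fold change of 1.48, above 0 in each omission of 1 library, with both cKO values above both control values in 9 of 12 (19.2% of all genes tested) and 0 called. Without control replicate 1, 3 of the 12 were called (2.38% of all genes), and without control replicate 2 also 3 (0.203% of all genes). Their most abundant gene was Nkg7, which had 4975 and 6616 in cKO and 8474 and 4671 in control, and the other 11 genes summed to 7963 and 5394 in cKO and 2141 and 3291 in control. The 7 B cell genes had a median of 0.55, and 0 were called. With 1 library left out it lay between 0.11 (without cKO replicate 1) and 1.06 (without cKO replicate 2). In 2 of the 7 both cKO values lay above both control values, against 19.2% of all genes tested. The 9 immediate early genes summed to 5350 and 6268 in cKO and 13647 and 17410 in control. Those of 7 stromal and osteolineage genes were 4813 and 9333 in cKO and 21122 and 20090 in control. Both cKO values lay below both control values in 9 of the 9 and in 4 of the 7, against 19.5% of all genes. In 1 of the 7 they lay above, and limma called 0 of either list. DESeq2 called 8 of the 9, 4 of the 7 and 3 of the 12 lymphoid genes, among 110 of 16673 genes. The smallest sum over the 4 libraries for any gene of the table was 41 reads, so it shows no gene at 0 throughout, and 7 of 8 listed B cell genes and 5 of 6 listed megakaryocyte genes were analysed here. The part of these marker lists in the values of the 8 regulators was not tested.

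The 10 surface marker genes of stem and progenitor cells summed to 37700 and 34908 in cKO and 29251 and 28021 in control, higher in both cKO libraries. In 6 of the 10, both cKO values lay above both control values, against 19.2% of all genes tested, and the median log2 fold change was 0.42. It was 0.82 without control replicate 2 and 0.29, with 6 of 10 above 0, without control replicate 1. None was called, and Tek itself, the gene that drives Cre, is 1 of the 10.

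**Figure D3:**
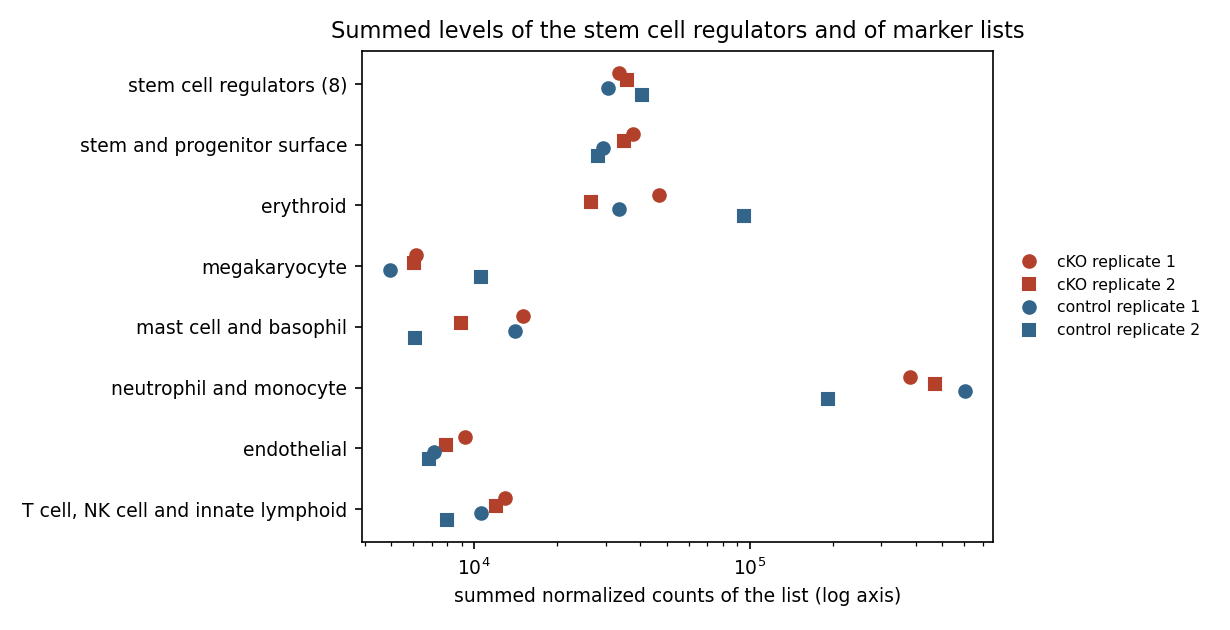
Summed normalized counts (x axis, log scale) of the 8 stem cell regulators and of 7 marker lists, 1 point per library (red, cKO; blue, control; circles, replicate 1; squares, replicate 2). Control replicate 2 is the highest library for the regulators (40732), the erythroid genes (94942) and the megakaryocyte genes (10567). It is the lowest for the other lists shown: neutrophil and monocyte (191738), stem and progenitor surface (28021), mast cell and basophil (6122), endothelial (6831) and T cell and NK cell (7962). Nkg7 (4975 and 6616 in cKO, 8474 and 4671 in control) is the most abundant gene of the T cell and NK cell list in all 4 libraries.

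The partner genes of these regulators gave no call either. Of 76 further regulators in 7 lists, 75 were tested, and 0 were called in either direction (limma, Benjamini-Hochberg, against 0.0723% of all genes). An unadjusted limma p under 0.05 was found for 8 of the 75, against 6.1% of all genes tested. edgeR and DESeq2 also called 0 of them. Their median log2 fold change was 0.01, the same as over all genes tested, with 40 above 0 and 35 below. In 14 of them both cKO values lay above both control values and in 12 below, against 19.2% and 19.5% of all genes. Gata1 and Gfi1b, factors of red cell and platelet precursors, were called lower when control replicate 1 was left out, at log2 fold changes of -1.49 and -1.06 (limma adjusted p = 0.021 and adjusted p = 0.042), 2 of 75 against 2.38% of all genes called in that fit. With all libraries Gata1 had -0.56 and Gfi1b -0.32, and without control replicate 2 they had 0.38 and 0.43.

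The partners of LMO2, GATA2 and RUNX1 on DNA (11 genes) had a median log2 fold change of -0.22, with 4 above 0, and 7 of the 11 were highest in control replicate 2, against 34.0% of all genes. The median was 0.22 without that library and -0.38 without control replicate 1. The members with the smallest p were Erg, an ETS factor (2503 and 2186 normalized counts in cKO, 1893 and 1818 in control; log2 fold change 0.33, SE 0.19), and Lyl1, a bHLH factor close to TAL1 (5571 and 6416 in cKO, 7503 and 6890 in control; -0.27, SE 0.19). In both genes, picked for their small p, the groups did not overlap. Of the 11 genes, 1 had both cKO values above both control values and 2 had both below, against 19.2% and 19.5% of all genes. The RUNX relatives and partners (6 genes) had a median of 0.29, with 5 above 0, and 0.08 without control replicate 2. Runx2, the osteoblast factor also expressed in progenitors, had 7775 and 5471 normalized counts in cKO and 4892 and 4174 in control (log2 fold change 0.53, SE 0.23), and Runx3 had 3229 and 3234 in cKO and 3146 and 2174 in control (0.31, SE 0.22). Both were higher in each cKO library than in each control library (2 of the 6, against 19.2% of all genes), and neither passed.

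Among the TALE homeobox genes (7 tested, median -0.01, 3 above 0, and between -0.15 and 0.13 with 1 library left out), Meis3, a relative of Meis1 at a low level, had 91.1 and 108 normalized counts in cKO and 17.5 and 43.1 in control (log2 fold change 1.81, SE 0.61; unadjusted p = 0.020, limma adjusted p = 0.76). The PAR bZIP relatives of Hlf (3 genes) had a median of -0.14, which was 0.13 without control replicate 2 and 0.035 without cKO replicate 1, with Tef at 1097 and 1091 in cKO and 1002 and 1448 in control (-0.14, SE 0.24). The repressor Nfil3, which binds the same sites, had 500 and 788 in cKO and 984 and 601 in control (-0.29, SE 0.33).

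The elongation and DOT1L partners of MLLT3 (12 genes) had a median log2 fold change of 0.18, with 9 above 0, and between 0.047 (without cKO replicate 1) and 0.34 (without cKO replicate 2) with 1 library left out. Aff4, the scaffold of the super elongation complex, had 4334 and 3021 normalized counts in cKO and 2838 and 1797 in control (0.68, SE 0.28; unadjusted p = 0.044). Eaf2, an ELL-associated factor, had 59.5 and 55.1 in cKO and 22.2 and 17.5 in control (1.49, SE 0.61; unadjusted p = 0.042), few reads in all libraries. The groups of both genes, picked for their small p, did not overlap, and both had a limma adjusted p of 0.76. Of the 12 genes, 5 had both cKO values above both control values and 2 had both below, against 19.2% and 19.5% of all genes. The thioredoxin system and the alpha-arrestins (11 genes) had a median of -0.27, with 8 below 0, and -0.067 without cKO replicate 1 and -0.48 without cKO replicate 2. Txn2 and Txnrd2, the mitochondrial thioredoxin and its reductase, had 3797 and 4919 in cKO against 5445 and 7274 in control, and 1028 and 847 in cKO against 1220 and 1946 in control. Their log2 fold changes were -0.54 (SE 0.23) and -0.72 (SE 0.27), the groups did not overlap, and neither passed (limma adjusted p = 0.76 for both). Of the 11 genes, 5 had both cKO values below both control values and 0 had both above, against 19.5% and 19.2% of all genes. Other nuclear regulators of stem cells (25 genes) had a median of 0.11, with 15 above 0, and 0.051 without cKO replicate 1. Zbtb16, a zinc finger factor of stem cells and innate lymphocytes, had 748 and 433 in cKO and 340 and 207 in control (1.10, SE 0.38), and Ikzf2 had 1980 and 1271 in cKO and 1056 and 1025 in control (0.61, SE 0.26; limma adjusted p = 0.76 for both).

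**Figure D4:**
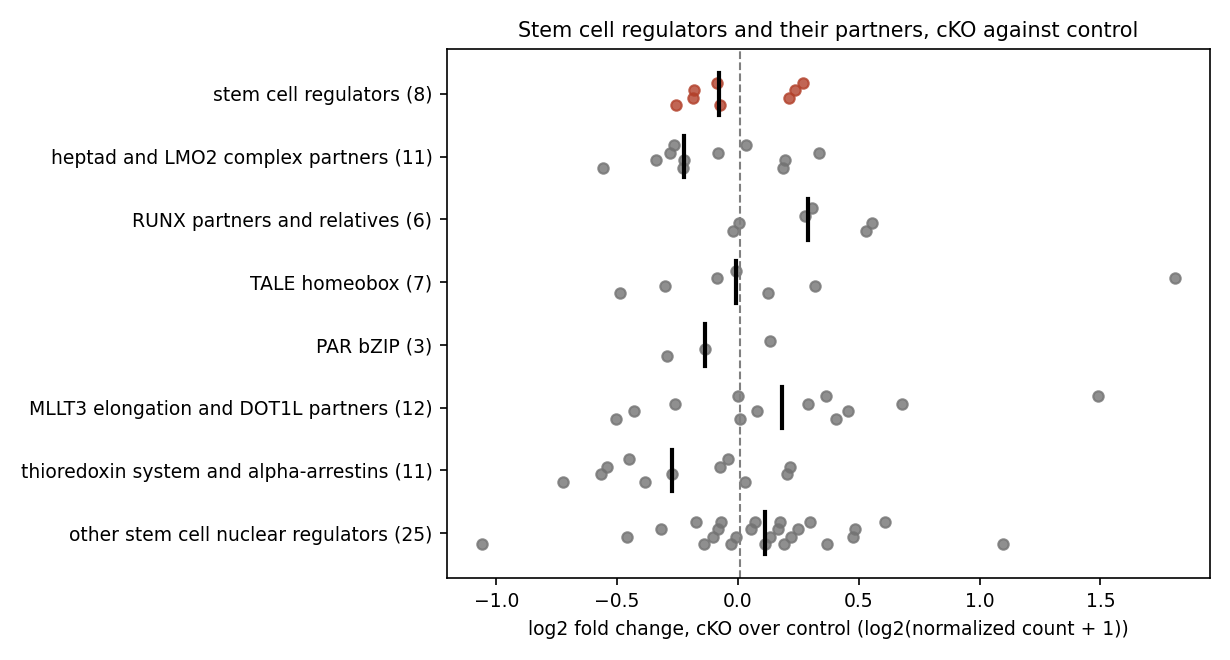
Log2 fold change of cKO over control (x axis), 1 point per gene, for the 8 regulators (red) and 7 lists of partners and relatives (grey, number of genes in parentheses); short black lines are list medians and the dashed line is the median of all genes tested (0.01). The 8 regulators lie between -0.26 and 0.27, and no point passed the test.

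The gene among the 75 whose profile over the 4 libraries lay nearest to each member was taken by the root mean square difference of log2 values, each centred on its own mean. Gata2 lay nearest to Ldb1, which encodes the LIM-binding subunit of the LMO2 complex (difference 0.052). Ldb1 had 10422 and 9421 normalized counts in cKO and 8490 and 17102 in control, the order of libraries seen for Gata2. Mllt3 lay nearest to Tal1 (0.061), with 4545 and 3254 in cKO and 2610 and 5415 in control, again high in control replicate 2 and low in control replicate 1. Hlf lay nearest to Prdm16 (0.11), a relative of Mecom needed by stem cells, which had 128 and 221 in cKO and 118 and 183 in control. The nearest gene was Arrdc4 for Meis1 (0.057), Dot1l for Runx1 (0.054), Ssbp2 for Lmo2 (0.073), Dbp for Txnip (0.11) and Txn1 for Mecom (0.18). With 4 libraries these are descriptions of likeness.

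**Figure D5:**
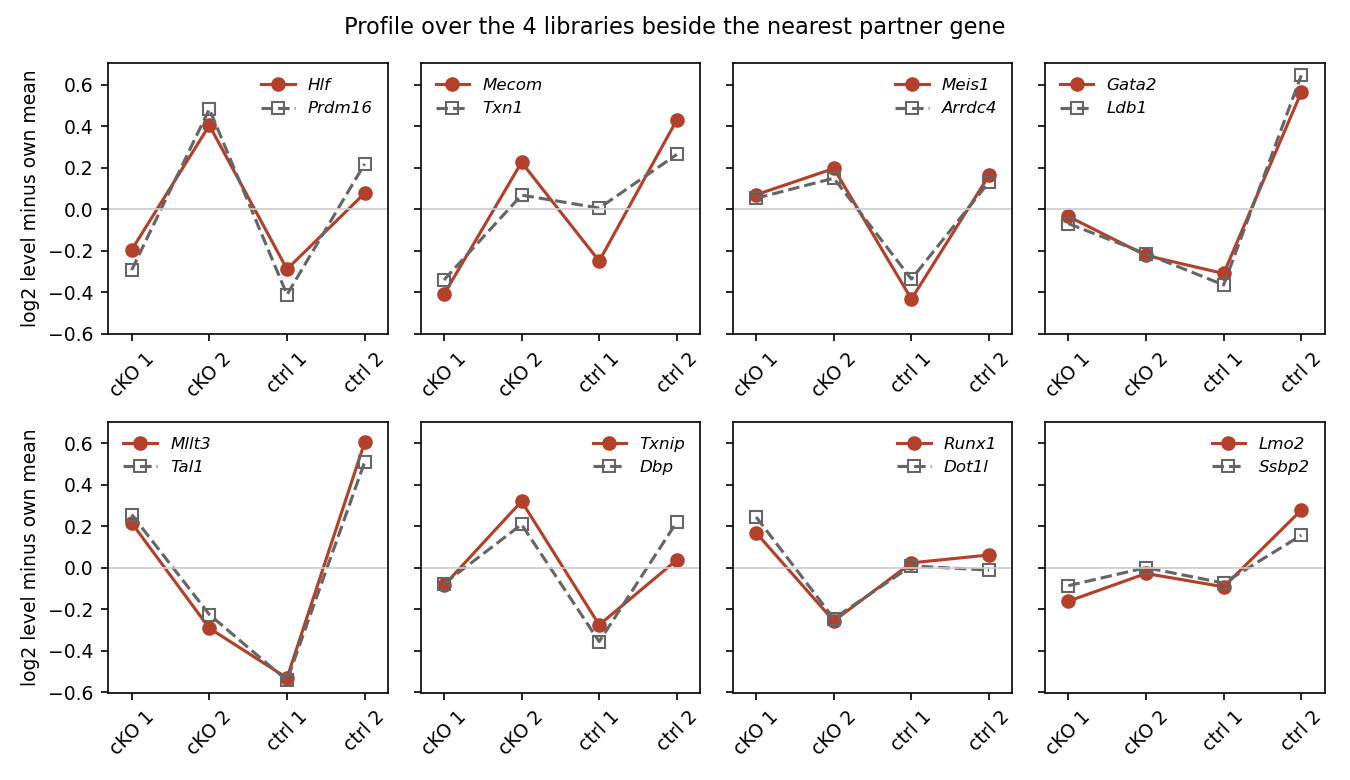
Log2 level minus the gene's own mean over the 4 libraries (y axis) for each regulator (red, filled) and its nearest gene among 75 partners (grey, open), over cKO replicates 1 and 2 and control (ctrl) replicates 1 and 2. Gata2 with Ldb1 and Mllt3 with Tal1 peak in control replicate 2, while Hlf with Prdm16 peaks in cKO replicate 2.

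Exons of 4 members overlap other annotated genes, and the labels do not say whether counting used strand. On the opposite strand these are Mecomos (81 shared bases with Mecom), Gm16140 (896 with Meis1), Gm15441 (606 with Txnip) and Gm26626 (106 with Runx1), and on the same strand Gm37818 (1029 with Meis1). Of these, Gm37818, Gm15441 and Gm26626 were in the table, with at most 98.1 normalized counts in any library. Reads of Meis1 and Txnip in the shared bases could have been split or dropped.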

How the data were processed

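Gene-level RNA-seq values of 4 libraries, 2 per genotype, were used. The submitters' processing notes list build mm39 and, for trimming, alignment and counting, Trim Galore (0.6.7), STAR (2.7.9a), SAMtools and featureCounts, with DESeq2 for normalization; they give no settings or annotation. The deposited signal values are gene counts divided by the authors' size factor per library, with 1 column per mouse. The columns named wild type were taken as the samples labelled control. All values (100%, within 0.1 read) were whole multiples of 1 read, and the recovered reads entered edgeR 4.0.16 and DESeq2 1.42.0. Recovered totals were 28845037 to 46673855 reads, with size factors of 0.857 to 1.25. Labels do not say whether mice came from 1 litter.

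cKO and control were compared with limma (3.58.1, under R 4.3.3) after adding 1 and taking log2, using a variance trend. Genes averaging 10 or more entered, tests were two-sided, and p-values were adjusted over all of them by Benjamini-Hochberg and called under 0.05. Fold changes understate those of low genes. The steps were tested on simulated data. Exon lengths and overlaps come from GENCODE M21 (GRCm38) by symbol. The members, lists and tests were chosen with earlier results of these data known. Besides the 8 members, the text names up to 2 genes with the smallest p per list, the nearest gene per member, and markers beside a result; Gata1 and Gfi1b were named after their values were seen, and 1 gene the rule takes is not reported here. Alternatives were pseudocounts of 0.5 and 10, no filter, a mean of at least 50, TMM rescaling, quantile normalization, no trend, a replicate block, leaving out X and Y genes, and leaving out each library.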

Additional observations from a re-analysis of the deposited data

How the results depend on the processing

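Under all 15 alternatives 0 of the 8 regulators were called. Directions of the 8 were the same as with all libraries in every alternative that kept all 4, and 8 of 32 values turned when a library was left out. Over these omissions the log2 fold change ran from -0.089 (without cKO replicate 2) to 0.51 for Hlf, from -0.52 to 0.16 (0.14 without cKO replicate 1, 0.16 without control replicate 2) for Mecom, and from -0.030 (without control replicate 1) to 0.57 for Meis1. It ran from -0.69 to 0.18 (without control replicate 2) for Gata2, from -0.64 to 0.49 (0.18 without cKO replicate 2, 0.49 without control replicate 2) for Mllt3, and from -0.30 to 0.13 (without cKO replicate 2) for Runx1. In these fits the lone library is assumed to vary like the others. Members whose groups did not overlap numbered 3 to 5 with a library left out, where 58.3% to 80.5% of all genes do not overlap. Further regulators called ran from 0 to 2. The number of genes called was 12 with all libraries and 18 to 392 with 1 left out, 392 being without control replicate 1; DESeq2 called 110, and 2 were called without X and Y genes. Deviations of the libraries with the same replicate number had a correlation of -0.074 over 16598 genes. With 2 mice per group this cannot show whether the replicate numbers pair the samples. With the replicate block 8 genes and 0 members were called. Depth limits Mecom most, at 82 to 216 reads.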
